A study of Mus musculus with 6 samples.

Results

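The insulin-like growth factor (IGF) system of muscle stem cells (MuSCs) was read through 10 genes of 25166 in the deposited RNA-seq table. They are the ligands *Igf1* and *Igf2*, the receptors *Igf1r* and *Igf2r*, and the binding proteins *Igfbp2*, *Igfbp3*, *Igfbp4*, *Igfbp5*, *Igfbp6* and *Igfbp7*, taken by gene symbol. The set was selected on the higher signal of the abundant *Igfbp5* in Sirt6mKO, so that the difference of *Igfbp5* is described here and was not tested. All 10 genes have a row in the table, and 9 averaged a signal of at least 5 over the 6 libraries and entered the fit.

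MuSCs are the PAX7-expressing stem cells of skeletal muscle. They were sorted by FACS from male C57BL/6 mice of 12 weeks, and RNA of 100 to 200 cells was sequenced without culture, with 3 libraries per genotype and 1 library per sample. In Sirt6mKO mice a constitutively active Cre driven by Pax7 removes the floxed exons 4 to 6 of *Sirt6*, so that descendants of PAX7-positive progenitors, myofibers included, also carry the deletion. The controls (Ctrl) are Sirt6 fl/fl littermates without Cre in the legend of the study and wild type in the labels. The labels do not say whether the samples of a group came from separate animals, so p-values measure only the spread between these samples, which may be technical.

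IGF1 and IGF2 are secreted peptides that bind the receptor tyrosine kinase IGF1R, which signals through IRS proteins to PI3K, AKT and mTOR and promotes growth and survival of muscle cells. IGF2R has no kinase domain and removes IGF2 from the cell surface, besides sorting lysosomal enzymes. The IGF binding proteins hold the peptides outside the cell and can withhold them from the receptor or deliver them to it, and proteases that cut the binding proteins set the peptides free.

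The values are called signal here: reads per gene divided by 1 size factor per library and rounded by the authors. By estimate, between 1267027 and 3209958 reads lie behind the libraries, and the total signal ran from 2272307 to 2369973. Control replicate 3 is the shallowest library, with 1 read worth a signal of 1.79, and low values are least precise there. *Sirt6* itself had a signal of 19, 20 and 13 in Sirt6mKO and of 18, 17 and 20 in the controls. The groups overlap on *Sirt6*, whose row also counts the exons that the deletion leaves, so the genotype labels could not be checked on it. Of the 12 MuSC markers tested, *Pax7* fell and *Cd34* rose, both by less than 2-fold (limma-trend adjusted p = 0.0041 and 0.031).

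The promoters of 3 genes are shown because the description below turns on them: *Igfbp5*, which chose the set, and *Igf1* and *Igfbp3*, the members past both thresholds. Each line is the 250 bases before a RefSeq start on GRCm38.p6, read along the gene. Capitals mark every full match, on either strand, to the TATA motif TATAAA, the AP-1-like pattern TGANTCA (any middle base), the E-box CANNTG, the forkhead motif TGTTTAC or the GC box GGGCGG.
Igfbp5 promoter, chr1:72874866-72875115, minus strand: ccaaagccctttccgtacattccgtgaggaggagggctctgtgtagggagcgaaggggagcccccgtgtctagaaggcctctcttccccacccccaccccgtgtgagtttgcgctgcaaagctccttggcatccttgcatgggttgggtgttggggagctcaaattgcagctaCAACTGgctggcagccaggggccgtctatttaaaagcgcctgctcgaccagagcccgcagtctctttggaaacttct
Igf1 promoter, chr10:87860861-87861110, plus strand: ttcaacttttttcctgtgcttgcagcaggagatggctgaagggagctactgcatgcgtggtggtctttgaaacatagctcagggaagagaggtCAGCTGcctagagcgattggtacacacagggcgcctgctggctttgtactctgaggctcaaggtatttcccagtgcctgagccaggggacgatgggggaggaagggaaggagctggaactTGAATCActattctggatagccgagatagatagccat
Igfbp3 promoter, chr11:7213924-7214173, minus strand: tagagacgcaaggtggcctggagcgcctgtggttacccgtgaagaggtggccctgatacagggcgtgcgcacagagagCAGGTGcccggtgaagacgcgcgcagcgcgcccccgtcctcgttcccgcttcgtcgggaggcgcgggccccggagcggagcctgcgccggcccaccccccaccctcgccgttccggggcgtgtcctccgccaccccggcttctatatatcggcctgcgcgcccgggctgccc
The *Igfbp5* window holds 1 CANNTG match, which 72.3% of all 32851 RefSeq promoter windows of 300 bases hold, and none of the other motifs. The *Igf1* window holds 1 match to TGANTCA, spelled TGAATCA, 37 bases before the start, besides 1 CANNTG match. TGANTCA is found in 7.8% of windows. The *Igfbp3* window holds a CANNTG match at 172 bases before the start, and a second one begins at its last base. None of the 3 windows holds TATAAA (13.6% of windows), TGTTTAC (3.6%) or GGGCGG (35.7%), and the *Igfbp4* window has TATAAA 28 bases before its start. These matches describe the letters in the windows only. The *Igf1* window lies inside the annotated gene, which has an earlier start.

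*Igf1* was the member with the largest tested difference, and it fell. *Igf1* (ENSMUSG00000020053, chr10:87858265-87937042, plus strand) encodes the ligand that acts on muscle both as a hormone and as a local factor. The Sirt6mKO libraries had a signal of 185, 192 and 168, and the controls one of 767, 577 and 541. Every Sirt6mKO library was below every control library, and the gap between the groups was wider than the range within either. The mean was 181.7 ± 12.34 (SD, n = 3) in Sirt6mKO and 628.3 ± 121.4 (SD, n = 3) in the controls. *Igf1* was 3.41-fold lower, with a log2 fold change of -1.77 (SE 0.14, 95% interval -2.07 to -1.47) and an adjusted p of 6e-05 (limma-trend, Benjamini-Hochberg over all 14227 genes tested). An exact permutation test of 3 libraries against 3 cannot go below 0.1. The log2 fold change stayed between -1.87 and -1.62 when each library was left out in turn, and *Igf1* passed both thresholds each time.

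The other ligand was scarcely measured. *Igf2* (ENSMUSG00000048583, chr7:142650766-142666816, minus strand), an imprinted gene best known as the growth factor of the fetus, had a signal of 23, 18 and 8 in Sirt6mKO and of 10, 5 and 7 in the controls. The groups overlap, and between 4 and 28 reads lie behind each value. Its log2 fold change was 0.99 (SE 0.44, 95% interval 0.04 to 1.93, limma-trend adjusted p = 0.25). Among its neighbours, *Mrpl23*, a mitochondrial ribosomal protein gene 110.0 kb away, had a signal of 31 to 40 in Sirt6mKO and 36 to 45 in the controls; *Ins2*, 11.8 kb away, was not analysed here. Per kilobase of exon, *Igf1* made up 82.3 to 92.4% of the 2 ligands in Sirt6mKO and 97.8 to 98.5% in the controls.

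Neither receptor passed the test. *Igf1r* (ENSMUSG00000005533, chr7:67952827-68233668, plus strand), the signalling receptor, had a signal of 664, 1008 and 787 in Sirt6mKO and of 936, 844 and 945 in the controls. The Sirt6mKO values spread around those of the controls, and the log2 fold change was -0.17 (SE 0.14, 95% interval -0.47 to 0.14, limma-trend adjusted p = 0.60). *Igf2r* (ENSMUSG00000023830, chr17:12682406-12769664, minus strand), the clearance receptor, had a signal of 2411, 2750 and 2893 in Sirt6mKO and of 2616, 2728 and 2599 in the controls. Its groups also overlap, with a log2 fold change of 0.02 (SE 0.11, 95% interval -0.23 to 0.26, limma-trend adjusted p = 0.96). The antisense RNA *Airn* overlaps *Igf2r* on the other strand, with a signal of 292 to 370 in Sirt6mKO and 416 to 437 in the controls, and whether the counting used strand is not given in the sources used here. Per kilobase of exon, *Igf2r* exceeded *Igf1r* by 4.92 to 6.63 times in Sirt6mKO and 4.96 to 5.83 times in the controls.

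**Figure D1:**
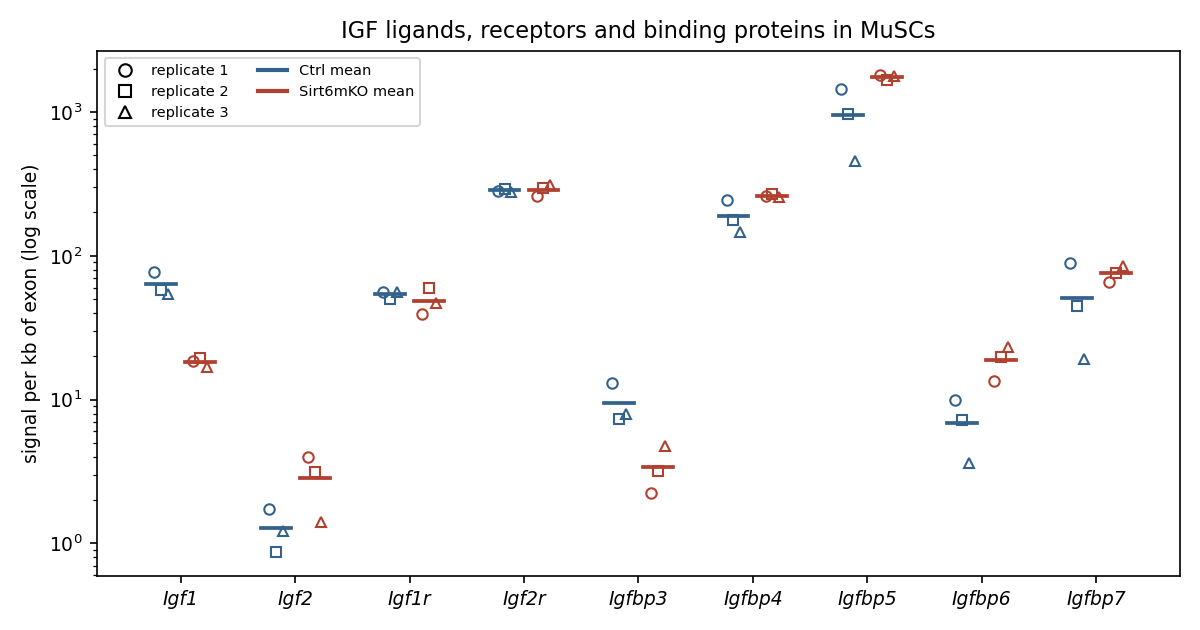
Signal per kilobase of exon (log axis) of 9 members in each library, with open symbols for the replicates and bars for the group means. *Igf1* and *Igfbp3* are lower in all 3 Sirt6mKO libraries, *Igfbp5* lies above the other members, and *Igfbp2*, at 0 in 3 libraries, is left out.

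*Igfbp5* was the most abundant member in both groups. *Igfbp5* (ENSMUSG00000026185, chr1:72857932-72874884, minus strand) encodes a secreted binding protein that also binds the extracellular matrix. The Sirt6mKO libraries had a signal of 10922, 9948 and 10629, and the controls one of 8706, 5800 and 2739. Every Sirt6mKO library was above every control library, and the controls differed among themselves by more than the highest control differed from the lowest Sirt6mKO library. The mean was 10500 ± 499.7 (SD, n = 3) in Sirt6mKO and 5748 ± 2984 (SD, n = 3) in the controls, and the log2 fold change was 1.02 (SE 0.30). Control replicate 3 decided much of this size: the log2 fold change was 0.56 without it, and 1.4 without control replicate 1.

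The spread of *Igfbp5* was unlike in the 2 groups. Its coefficient of variation was 4.76% in Sirt6mKO and 51.9% in the controls. Among the 951 genes whose signal averaged at least 500, its SD of log2(signal + 1) between the control libraries, 0.85, was exceeded by 2 genes and compares with a median of 0.14. In Sirt6mKO its SD of 0.07 was exceeded by 727 of these genes, with a median of 0.11. *Igfbp4* had the same contrast, with an SD of 0.37 in the controls and 0.04 in Sirt6mKO, whereas *Igf1r* had an SD of 0.09 in the controls and 0.30 in Sirt6mKO and *Igf2r* one of 0.04 and 0.14. Among members of lower signal, *Igfbp7* (1.09 and 0.18), *Igfbp6* (0.64 and 0.39) and *Igf1* (0.27 and 0.10) also spread more in the controls. *Igf2* (0.44 and 0.74) and *Igfbp3* (0.44 and 0.50) spread less there. The difference in spread was not tested, since each SD rests on 3 libraries.

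**Figure D2:**
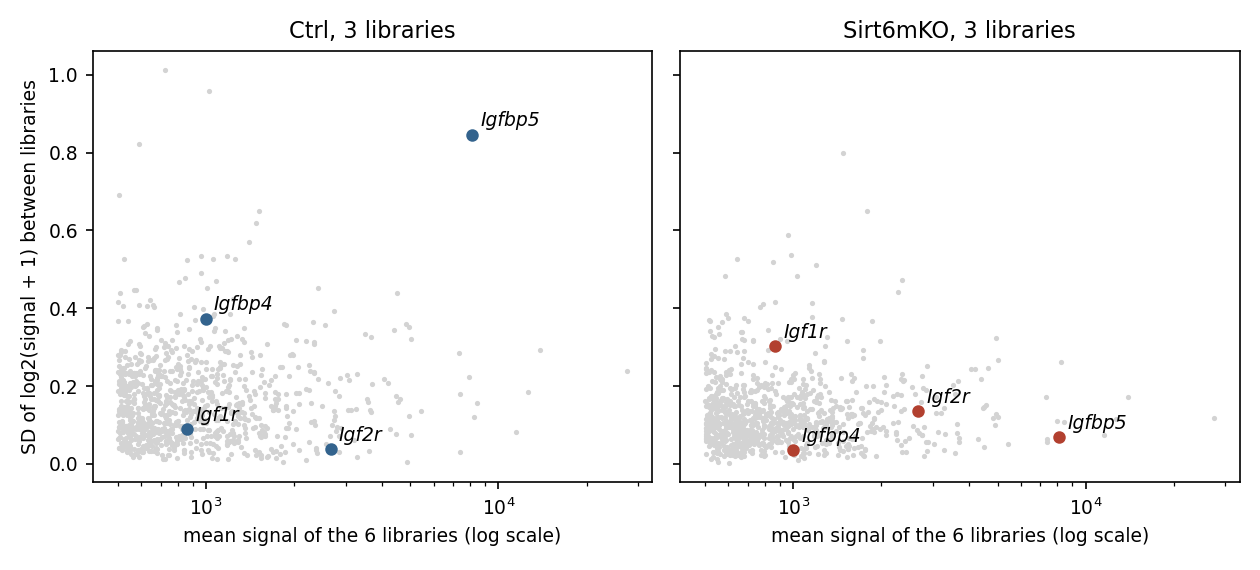
SD of log2(signal + 1) between the 3 libraries of each group against the mean signal (log axis), for the 951 genes that averaged at least 500 (grey), with 4 members named. In the controls *Igfbp5* lies at 0.85, above nearly all genes, and in Sirt6mKO at 0.07, within the lower part of the cloud.

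*Igfbp4* came second among the binding proteins. *Igfbp4* (ENSMUSG00000017493, chr11:99041244-99054392, plus strand), a binding protein best known for holding IGF1 back and for being cut by the protease PAPP-A, had a signal of 1158, 1182 and 1125 in Sirt6mKO and of 1082, 781 and 649 in the controls. All Sirt6mKO libraries were above all controls, by a narrow margin over control replicate 1. The log2 fold change was 0.50 (SE 0.16, 95% interval 0.16 to 0.83, limma-trend adjusted p = 0.10), 0.33 without control replicate 3 and 0.70 without control replicate 1.

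*Igfbp3* fell from a low level. *Igfbp3* (ENSMUSG00000020427, chr11:7206086-7213923, minus strand), the main carrier of IGF1 in blood, had a signal of 7, 10 and 15 in Sirt6mKO and of 41, 23 and 25 in the controls. All Sirt6mKO libraries were below all controls, with 8 to 16 reads behind the Sirt6mKO values and 14 to 33 behind those of the controls. The log2 fold change was -1.41 (SE 0.35, 95% interval -2.17 to -0.65, limma-trend adjusted p = 0.040). This call was lost when any 1 of the control libraries, or Sirt6mKO replicate 1 or 2, was left out, with a limma-trend adjusted p between 0.062 and 0.18. Over all 6 such fits the log2 fold change was between -1.66 and -1.16.

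*Igfbp6* and *Igfbp7* had higher means in Sirt6mKO but did not pass. *Igfbp6* (ENSMUSG00000023046, chr15:102144362-102149511, plus strand), which prefers IGF2 over IGF1, had a signal of 15, 22 and 26 in Sirt6mKO and of 11, 8 and 4 in the controls. The groups do not overlap, yet only 2 to 30 reads lie behind each value. The log2 fold change was 1.4 (SE 0.4, 95% interval 0.53 to 2.27, limma-trend adjusted p = 0.071), and without control replicate 1 it was 1.68 (limma-trend adjusted p = 0.043). *Igfbp7* (ENSMUSG00000036256, chr5:77349240-77408041, minus strand), a relative with low affinity for the IGFs, had a signal of 80, 92 and 103 in Sirt6mKO and of 107, 54 and 23 in the controls. Control replicate 1 exceeded all Sirt6mKO libraries, so that the groups overlap. The log2 fold change was 0.82 (SE 0.39, 95% interval -0.03 to 1.67, limma-trend adjusted p = 0.30). It ranged from 0.26 without control replicate 3 to 1.34 without control replicate 1, where it passed both thresholds (limma-trend adjusted p = 0.029). *Polr2b*, a subunit of RNA polymerase II that overlaps *Igfbp7* on the other strand, had a signal of 283 to 338 in Sirt6mKO and 303 to 359 in the controls.

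*Igfbp2* was not detectable at this depth. *Igfbp2* (ENSMUSG00000039323, chr1:72824503-72852474, plus strand) had a signal of 0, 2 and 1 in Sirt6mKO and of 1, 0 and 0 in the controls, with at most 3 reads in any library, and no fold is given. It lies 5.5 kb from *Igfbp5*, on the opposite strand with the 3′ ends facing each other. The pair therefore holds the most abundant and the least abundant member side by side. On its other side, the nearest protein-coding gene to *Igfbp5* is *Tnp1*, 140.2 kb away, which was not analysed here.

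Among the 9 members other than *Igfbp5*, 8 were tested and 2 passed both an adjusted p of 0.05 and a fold change of 2, *Igf1* and *Igfbp3*, both lower, beside 2.59% of all 14227 genes tested. The Sirt6mKO and control libraries did not overlap for 4 of the 8, beside 21.2% of all tested genes. Their median log2 fold change was 0.26, against 0.002 over all tested genes.

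**Figure D3:**
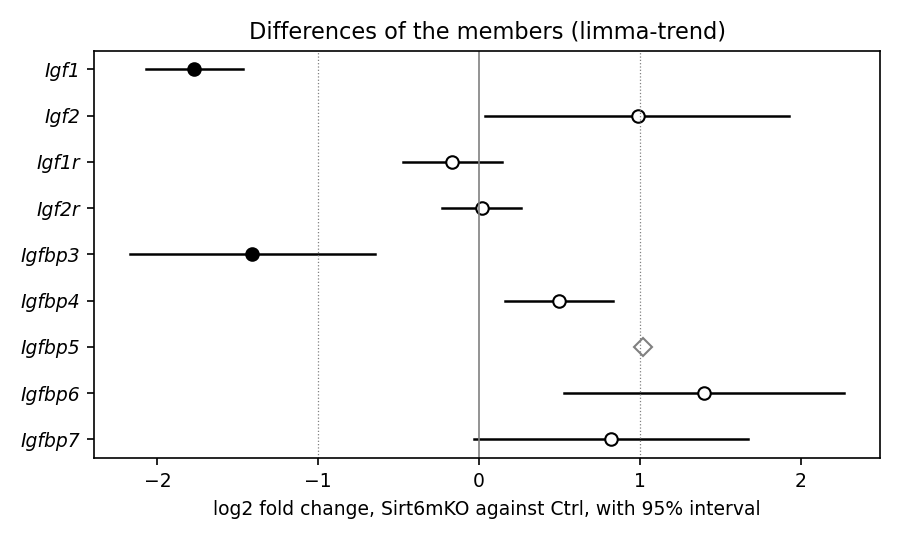
Log2 fold change of 9 members (Sirt6mKO against Ctrl), with lines for the 95% interval of limma-trend. Filled circles (*Igf1* at -1.77, *Igfbp3* at -1.41) passed both thresholds, open circles did not, and *Igfbp5*, at 1.02, is a diamond without interval because it chose the set. Dotted lines mark a 2-fold difference.

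Per kilobase of exon, which allows genes to be compared, the order of the members differed between the groups below the first ranks. *Igfbp5* led in Sirt6mKO with 1750 ± 83.2 signal per kb (SD, n = 3), followed by *Igf2r* (288), *Igfbp4* (262), *Igfbp7* (75.8), *Igf1r* (48.8), *Igfbp6* (18.9), *Igf1* (18.3), *Igfbp3* (3.41), *Igf2* (2.85) and *Igfbp2* (0.541). The ranges of *Igf2r* and *Igfbp4*, of *Igfbp6* and *Igf1*, and of *Igfbp3* and *Igf2* overlapped there. In the controls the levels were 957 ± 497 signal per kb (SD, n = 3) for *Igfbp5*, then 284 for *Igf2r*, 190 for *Igfbp4*, 63.4 for *Igf1*, 54.1 for *Igf1r*, 50.7 for *Igfbp7*, 9.48 for *Igfbp3*, 6.89 for *Igfbp6*, 1.28 for *Igf2* and 0.18 for *Igfbp2*. *Igf1*, *Igf1r* and *Igfbp7* were not separated from their neighbours in that order by their ranges, nor were *Igfbp3* and *Igfbp6*. *Igf1* thus stood at position 4 in the controls and at position 7 in Sirt6mKO. Among all genes of the table, *Igfbp5* had rank 9 per kb in Sirt6mKO and rank 28 in the controls.

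*Igfbp5* made up most of the binding protein signal in every library. *Igfbp5* held 81.8 to 84.1% of the summed binding protein signal per kb in Sirt6mKO and 72.0 to 80.4% in the controls, and its part of the total signal of a library was 0.42 to 0.469% against 0.121 to 0.372%. The sum of the other 5 binding proteins was 344.1 to 368.7 signal per kb in Sirt6mKO and 177.6 to 357.1 in the controls, so that those groups overlap. The ratio of *Igfbp5* to *Igf1* per kb was 97.4, 85.4 and 104 in the Sirt6mKO libraries, against 18.7, 16.6 and 8.35 in the control libraries. These ratios contain *Igfbp5* and are descriptions.

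The genes whose pattern over the 6 libraries was most like that of *Igfbp5* were sought among the 7393 others that averaged a signal of 50 or more, by the root mean square difference of log2(signal + 1) centred on each gene's mean. They were *Kirrel3* (0.17), a cell adhesion protein, *Spata13* (0.18), a guanine nucleotide exchange factor, *Chsy1* (0.19), a chondroitin sulphate synthase, *B3gnt9* (0.21), a glycosyltransferase, and *Id2* (0.22), an inhibitor of DNA binding. *Id2*, for example, had a signal of 71, 86 and 80 in Sirt6mKO and of 60, 54 and 16 in the controls. With each group centred on its own mean, which removes the genotype difference, *Steap4* (0.10), *Naaa* (0.12), *Kirrel3* (0.14), *Tgm2* (0.14) and *Col16a1* (0.14) were nearest. *Kirrel3* alone was on both lists. Like *Igfbp5*, all 9 of these genes had their lowest value in control replicate 3. Their choice by likeness to *Igfbp5* favours this shared minimum, so it is not a separate result.

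Markers of other cells were read beside the members, since in bulk libraries fewer cells of a type and less RNA per cell cannot be told apart. Of 9 fibroblast markers tested, *Pdgfra*, *Col1a1* and *Clec3b* rose past both thresholds with limma-trend, and 4 passed both with voom. The summed signal of the 11 in the table was 12164 to 13663 in Sirt6mKO and 8811 to 13230 in the controls. *Col1a1*, the type I collagen chain, had a signal of 420, 1063 and 645 in Sirt6mKO and of 487, 128 and 81 in the controls, and *Pdgfra*, the receptor that defines interstitial fibroblasts, one of 14, 22 and 38 and of 9, 4 and 2. In the controls *Col1a1*, *Col3a1*, *Dpt*, *Gsn*, *Lum*, *Pdgfra* and the sum of the list were highest in replicate 1 and lowest in replicate 3. The same held for *Igfbp4*, *Igfbp5*, *Igfbp6*, *Igfbp7* and *Igf1*. *Dcn* (77, 26 and 34) and *Fbln1* (12, 1 and 5) were lowest in replicate 2. *Clec3b* (1, 0 and 0) was barely measured in the controls. *Pi16* (2, 2 and 4) and *Mfap5* (0, 1 and 4) were low and highest in replicate 3. How many of all genes share the order of the first group was not counted. In Sirt6mKO replicates 1, 2 and 3, the signal was 14, 22 and 38 for *Pdgfra* and 43, 167 and 157 for *Dcn*. It was 960, 820 and 1074 for *Dpt*, and 3353, 3375 and 3166 for *Gsn*. *Clec3b* had 109, 22 and 78, and *Fbln1* 17, 34 and 18. *Lum* had 7, 13 and 22, and *Col3a1* 7236, 6685 and 8461. *Igfbp5* had 10922, 9948 and 10629 in these libraries. According to the methods, cells positive for SCA1, a marker of muscle fibroblasts, CD45 or CD31 were depleted before the MuSCs were sorted. The study reanalysed sorted cells and reports a purity short of complete. The part of fibroblast RNA in the signal of the members was not tested.

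**Figure D4:**
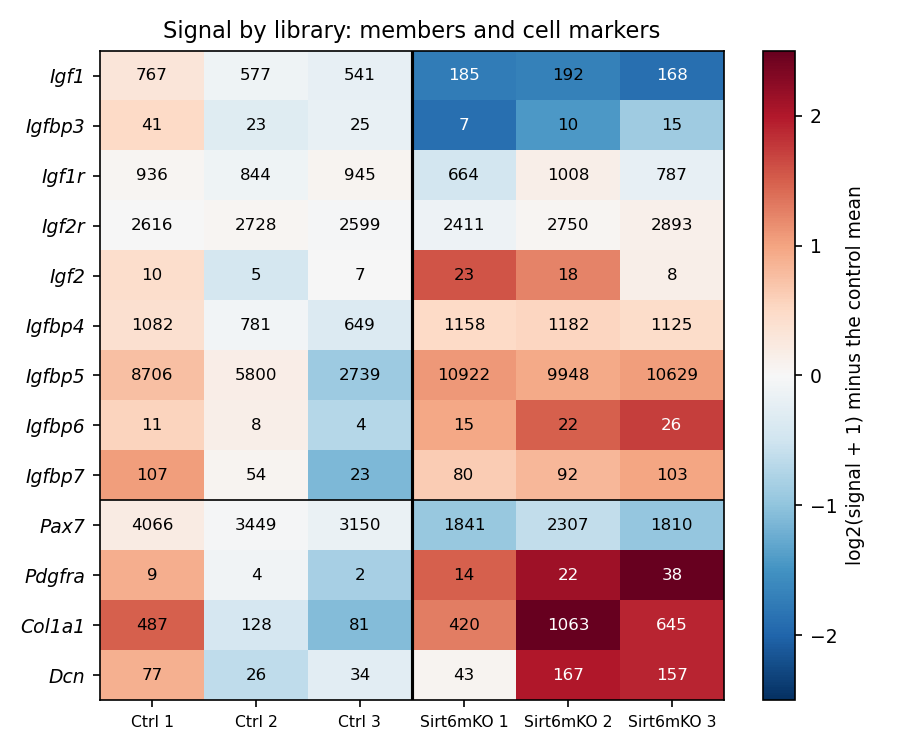
Signal of 9 members and 4 markers in each library (numbers), coloured by log2(signal + 1) minus the control mean of the gene, with red for higher and blue for lower. *Igf1*, *Igfbp3* and the MuSC marker *Pax7* are blue in all 3 Sirt6mKO libraries, and *Igfbp5* is palest in control replicate 2 and blue in control replicate 3.

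The other marker lists were read in the same way. The 9 myofiber markers summed to 1480, 1610 and 342 in Sirt6mKO and to 310 to 354 in the controls, and 2 of the 9 passed both thresholds with limma-trend but 0 with voom. In the same Sirt6mKO libraries *Igf1* had a signal of 185, 192 and 168, and *Igfbp5* one of 10922, 9948 and 10629. The 7 tenocyte markers summed to 61, 1110 and 421 in Sirt6mKO and to 51 to 75 in the controls. Of these 7, 0 passed the adjusted p with limma-trend or voom. An unadjusted p under 0.05 was found for 4 of them, beside 2577 of all 14227 genes tested. The 10 mural and smooth muscle markers summed to 3334 to 3993 in Sirt6mKO and to 2372 to 2731 in the controls, and the 9 tested had a median log2 difference of 0.09. Of these, *Tagln*, a smooth muscle actin-binding protein, rose past both thresholds, *Des*, the desmin gene that MuSCs also express, rose by less than 2-fold, and *Mcam*, an adhesion molecule of pericytes, fell, with log2 fold changes of 1.60, 0.59 and -0.99 (limma-trend adjusted p = 8e-05, 0.026 and 0.012). With voom, 2 of the 9 passed both thresholds. *Abcc9*, a potassium channel subunit of pericytes, had a log2 fold change of -1.10 (limma-trend adjusted p = 0.098). Its groups do not overlap, as for 21.2% of all tested genes. From the same list *Rgs5*, *Cspg4*, *Pdgfrb*, *Acta2* and *Myh11* had log2 fold changes of 0.53, 0.35, 0.09, -0.02 and -0.06, without passing the adjusted p. The 7 endothelial markers in the table summed to 17 to 47, with *Tie1* and *Cldn5* at 0 in most libraries, the 6 Schwann cell markers to 51 to 119 and the 3 immune markers to 36 to 77 (*Ptprc* was not analysed here). Of the 6 genes tested in these 3 lists, 0 passed the adjusted p with limma-trend or voom and 0 had an unadjusted p under 0.05. Among 6 tested markers of myogenic commitment, *Myod1* fell, by less than 2-fold. The part of these cells in the members' values was not tested.

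The other genes of the IGF pathway passed at a rate near that of all tested genes. The pathway lists (secreted cofactors, CCN proteins with an IGFBP domain, IGF2 mRNA-binding proteins, receptor-proximal signalling, PI3K-AKT-mTOR, and FOXO factors and targets) hold 78 genes of the table, of which 66 were tested. Past both thresholds was 1 of them, *Socs2*, beside 2.59% of all tested genes, and past the adjusted p alone 3, beside 4.52%. With voom these counts were 1 and 4. The median log2 fold change was 0.06.

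*Socs2*, an inhibitor of cytokine and growth hormone receptor signalling, fell, from a control signal of 139, 85 and 129 to 69, 32 and 56 in Sirt6mKO. The groups do not overlap, and the log2 fold change was -1.19 (SE 0.27, limma-trend adjusted p = 0.025). Without control replicate 1 or 3 or without Sirt6mKO replicate 2 it no longer passed, with limma-trend adjusted p of 0.081, 0.081 and 0.097. *Socs3*, its relative that restrains signalling through STAT3, rose, from a control signal of 262, 295 and 229 to 487, 446 and 481 in Sirt6mKO. Its log2 fold change was 0.85 (SE 0.12, limma-trend adjusted p = 0.0019). It passed the adjusted p in every alternative run. *Pdk4*, a kinase that shuts glucose carbon out of the mitochondria and a target of FOXO factors, rose from 135, 127 and 160 in the control libraries to 200, 186 and 220, with a log2 fold change of 0.52 (SE 0.14, limma-trend adjusted p = 0.049). *Pdk4* lost this call in 9 of 17 alternatives.

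Of the 10 genes tested for receptor-proximal signalling, *Socs2* and *Socs3* were the only ones past the adjusted p. *Insr*, the insulin receptor, had a signal of 270, 367 and 388 in Sirt6mKO and of 252, 277 and 376 in the controls. *Irs1*, the first adaptor of the receptor, had 997, 1163 and 1110 against 917, 1007 and 902, and *Irs2* had 380, 545 and 361 against 278, 339 and 305, where the groups do not overlap and the log2 fold change was 0.46 (SE 0.15, limma-trend adjusted p = 0.13). *Grb10*, an adaptor that dampens the receptor, had 1341, 1439 and 1378 against 1333, 1929 and 1775, with a log2 fold change of -0.26 (SE 0.13, limma-trend adjusted p = 0.34).

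Of the 27 PI3K-AKT-mTOR genes tested, 0 passed the adjusted p with limma-trend and 0 with voom. An unadjusted p under 0.05 was found for 3 of them, beside 2577 of all 14227 genes tested. *Akt1* had a signal of 410, 377 and 409 in Sirt6mKO and of 317, 385 and 351 in the controls, *Akt2* one of 356, 329 and 333 against 369, 470 and 344. *Mtor*, the kinase of both mTOR complexes, had 320, 364 and 292 against 320, 374 and 299. These groups overlap, and the log2 fold changes of the list ran from -1.89 for *Inpp4b*, a phosphatase with a signal of at most 22 in any library, to 0.45.

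Of the 15 FOXO genes tested, *Pdk4* alone passed the adjusted p with limma-trend, and 2 genes passed it with voom. *Foxo1*, a transcription factor held out of the nucleus by AKT, had a signal of 896, 1024 and 767 in Sirt6mKO and of 835, 749 and 792 in the controls. *Foxo3* had 695, 793 and 614 against 694, 799 and 719, and both pairs of groups overlap. Among the secreted cofactors 10 were tested and among the CCN proteins 4. Of either list 0 passed the adjusted p with limma-trend or voom. In each list 3 had an unadjusted p under 0.05, beside 2577 of all 14227 genes tested. The IGFBP protease genes *Htra1* and *Htra3* had signals of 191 to 252 against 90 to 263, and of 1029 to 1186 against 1149 to 1401. *Ccn5*, a matricellular protein, had a log2 fold change of 2.67 (SE 0.82, limma-trend adjusted p = 0.094) at a signal of 0 to 62. The 3 IGF2 mRNA-binding proteins had a signal of 0 to 7, below the mean needed for testing.

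**Figure D5:**
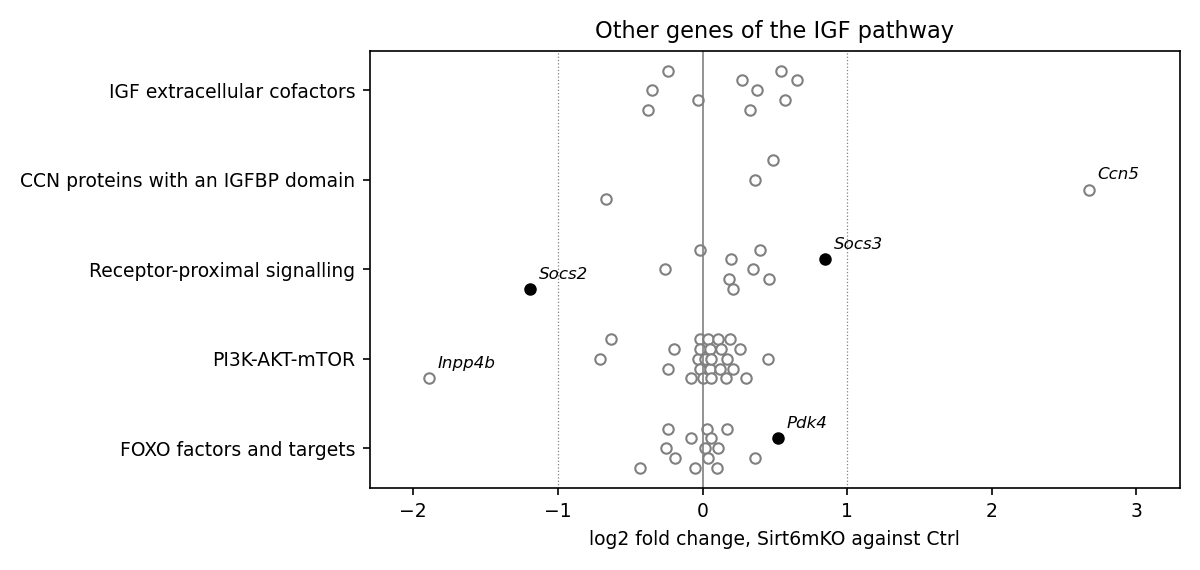
Log2 fold change (Sirt6mKO against Ctrl) of the 66 tested genes of the other IGF lists, 1 point per gene and 1 row per list, with vertical offsets only for legibility. Filled points passed an adjusted p of 0.05 (*Socs2* at -1.19, *Socs3* at 0.85, *Pdk4* at 0.52), and dotted lines mark a 2-fold difference.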

How the data were processed

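RNA-seq of FACS-sorted MuSCs was available from 3 Sirt6mKO and 3 control samples. The authors trimmed and aligned the reads to GRCm38 with STAR (2.7.10a per the labels), assigned them to genes with featureCounts (2.0.2), leaving out reads on several genes, and used DESeq2 (1.30.1). The methods and labels name different ribosomal depletion and library kits. The deposited values are a signal, whole numbers that the authors obtained by dividing reads by a size factor and rounding, so no test for counts was used. Size factors (0.558 to 1.372) were estimated by fitting how often each low whole number occurs in a library, so the numbers of reads given are estimates.

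The limma-trend method (limma 3.58.1, R 4.3.3) was applied to log2(signal + 1) of the 14227 genes with a mean of at least 5, with Benjamini-Hochberg adjustment over all. Thresholds, adjusted p of 0.05 and 2-fold, follow the methods. Genes named are the 10 members, other IGF genes past the adjusted p or listed as central (*Insr*, *Irs1*, *Irs2*, *Grb10*, *Akt1*, *Akt2*, *Foxo1*, *Foxo3*, *Mtor*, and 1 that is not reported here), the 5 nearest to *Igfbp5* in pattern, neighbours and defining markers; *Htra1*, *Htra3*, *Ccn5*, *Inpp4b*, *Airn* and *Polr2b* were added after their values were seen. Members and lists were chosen with earlier results of these data known. Exon lengths came from GENCODE (GRCm38), where 99.7% of identifiers matched, and promoters from RefSeq (GRCm38.p6), where all 10 members matched. Alternatives varied scaling, filter, pseudocount, moderation, block and libraries, or used voom on recovered reads. Tables were handled in Python 3.11.15, numpy 2.4.6 and pandas 2.3.3, and plots in matplotlib 3.10.9.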

Additional observations from a re-analysis of the deposited data

How the results depend on the processing

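The fall of *Igf1* passed both thresholds in all 17 alternatives (log2 fold change -1.87 to -1.62, limma adjusted p 1e-05 to 0.0018), and *Igfbp5* remained higher in all 17 (0.56 to 1.4). The count of members past both thresholds, 2, was 1 with a mean of at least 50, which leaves *Igfbp3* untested, 1 with no filter on low values and 1 with upper quartile scaling, where *Igfbp3* was at adjusted p = 0.074 and 0.058 (limma-trend); the cause was not tested. With 1 library left out it ranged from 1 to 3, the latter without control replicate 1, with *Igfbp6* and *Igfbp7* in place of *Igfbp3*. The count of pathway genes, 1, was 3 with the adjusted p alone (*Pdk4*, *Socs2*, *Socs3*) and ranged from 0 to 1 with 1 library left out, where *Ccn5* took the place of *Socs2* without control replicate 1. Upper quartile scaling moved the median log2 fold change of all genes to 0.093. *Igf2r* changed sign, at log2 fold changes of -0.0015 with scaling to equal totals, -0.0017 with voom, -0.0033 without Sirt6mKO replicate 2 and -0.04 without Sirt6mKO replicate 3, all within its standard error, and ranged from -0.04 to 0.09 with 1 library left out. With the replicate number as a block, 2 members and 3 pathway genes passed (*Ccn5*, *Inpp4b*, *Socs2*). Over all genes the block gave 268 higher and 167 lower past both thresholds, against 223 and 145 without it. Same-numbered libraries correlated at 0.0546, 0.0465 and 0.236 in their deviations from the group means, not all above 0.1. Of the 3 Sirt6mKO libraries, 1 correlated best with its own number. So few correlations cannot decide whether same-numbered samples were paired, and the main fit used no block. Depth limits *Igf2*, *Igfbp2*, *Igfbp3* and *Igfbp6*, with at most 33 reads in any library.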

Other observations

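Growth hormone acts through GHR, JAK2 and STAT5 to induce *Igf1* and *Socs2* in many tissues, and both fell in Sirt6mKO. The genes of this route were therefore read after the values of *Igf1* and *Socs2* were seen, and are given as values without a test. *Ghr*, the growth hormone receptor, had a signal of 319, 312 and 311 in Sirt6mKO and of 376, 254 and 265 in the controls, and *Jak2*, its kinase, 160, 207 and 174 against 165, 173 and 192. *Stat5a* had 92, 78 and 91 against 92, 131 and 118, and *Stat5b* 393, 451 and 399 against 408, 483 and 437. The groups overlap for all 4 genes. *Cish*, a SOCS family member that STAT5 also induces, had 42, 4 and 9 against 6, 2 and 7, and *Bcl6*, which STAT5 represses, 159, 626 and 363 against 258, 546 and 287, so that neither separated the groups.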
